A study of Mus musculus with 12 samples.

Results

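The AP-1 and bZIP genes described here are 10 transcription factor genes, Fos, Fosb, Fosl2, Jun, Junb, Jund, Batf, Batf3, Maf and Nfil3, chosen by name from 18194 genes measured on 12 mouse Affymetrix arrays of sorted CD8 T cells. A gene may have several probe sets, and each gene took the value of its brightest one that names no other gene. All 10 genes had at least 1 such probe set and none was filtered out. The deposited values are linear intensities, and every level below is a log2 intensity.

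Naive CD8 T cells came from the spleens of naive mice (n = 5 arrays). Tumour-infiltrating lymphocytes (TIL) came from mice bearing B16F10-GP, a skin melanoma line injected into the flank, and were sorted as PD-1+ Tim-3- CD8 T cells (n = 3) or PD-1+ Tim-3+ CD8 T cells (n = 4). The first sort was also 2B4- and is called stem-like in the labels, and the second was also 2B4+ and is called exhausted. All mice were of the strain given as C57bl/c and were 6 to 8 weeks old. The labels name no genotype, transgene or drug. Tumours of about 1 cm2 were cut up and digested for 1 hour with 150 U/mL collagenase IV and 20 µg/ml DNase, TIL were enriched on a Percoll gradient, and both TIL groups were sorted between day 17 and day 19. No such digestion is described for spleen, so in each comparison with naive cells the tumour, the tissue handling and the T cell state cannot be told apart. The 2 TIL groups share the handling. The labels do not say whether arrays of a group came from separate or pooled mice, so p-values measure only the spread between these samples.

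Proteins of the bZIP class bind DNA as dimers held together by a leucine zipper. AP-1 is a dimer of a Fos and a Jun protein, or of 2 Jun proteins. In T cells Fos and Jun are induced within minutes to hours of antigen receptor signalling and bind beside NFAT at cytokine genes. BATF and BATF3 pair with Jun proteins and bind with IRF4 or IRF8 at composite elements, c-Maf drives Il10 and other cytokine genes, and NFIL3 is mostly a repressor that shares sites with the PAR bZIP activators. Fos, Fosb, Jun and Junb are also immediate early genes that warming, enzyme digestion and sorting of tissue can induce.

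The promoters of 9 of the 10 genes were matched in RefSeq sequence of build GRCm38.p6, as windows from 250 bases before to 50 bases after the start site. Windows of 4 genes are shown: Fos, Fosb and Jun, whose arrays did not overlap between the TIL groups, and Nfil3, which stood far apart between TIL and naive cells and level between the TIL groups. Capitals mark matches to the short CRE site TGACG and the CRE-like site TGANNTCA, searched on both strands. CRE elements are bound by CREB and ATF family bZIP proteins. The windows lie at chr12:85473640-85473939 on the plus strand for Fos, chr7:19309996-19310295 on the minus strand for Fosb, chr4:95052173-95052472 on the minus strand for Jun and chr13:52980990-52981289 on the minus strand for Nfil3. Each runs 5′ to 3′ along its gene.
Fos: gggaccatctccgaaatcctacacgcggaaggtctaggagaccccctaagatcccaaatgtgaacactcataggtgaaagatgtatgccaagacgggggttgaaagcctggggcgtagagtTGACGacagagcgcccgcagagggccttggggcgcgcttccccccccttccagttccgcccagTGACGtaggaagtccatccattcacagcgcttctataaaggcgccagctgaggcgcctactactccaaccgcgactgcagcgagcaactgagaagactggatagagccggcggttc
Fosb: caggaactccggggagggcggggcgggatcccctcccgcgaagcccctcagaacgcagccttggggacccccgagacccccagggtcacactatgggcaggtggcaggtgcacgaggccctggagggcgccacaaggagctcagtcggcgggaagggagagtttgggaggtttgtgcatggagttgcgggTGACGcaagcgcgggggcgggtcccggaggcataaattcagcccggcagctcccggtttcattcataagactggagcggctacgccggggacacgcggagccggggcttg
Jun: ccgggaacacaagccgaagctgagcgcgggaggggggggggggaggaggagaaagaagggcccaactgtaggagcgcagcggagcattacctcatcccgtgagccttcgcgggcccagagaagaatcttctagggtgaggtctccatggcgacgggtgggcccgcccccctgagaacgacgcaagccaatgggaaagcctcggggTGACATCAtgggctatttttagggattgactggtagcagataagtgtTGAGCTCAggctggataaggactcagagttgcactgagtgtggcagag
Nfil3: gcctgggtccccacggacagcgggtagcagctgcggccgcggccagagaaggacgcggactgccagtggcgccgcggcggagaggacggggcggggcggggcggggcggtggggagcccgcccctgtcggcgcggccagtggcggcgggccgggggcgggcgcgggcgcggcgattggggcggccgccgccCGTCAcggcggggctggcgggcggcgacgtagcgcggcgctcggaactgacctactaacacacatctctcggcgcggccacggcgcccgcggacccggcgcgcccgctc

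The Fos window held TGACG at -129 to -125 and at -66 to -62 from the start site, with a TATAAA at -33 to -28. Fosb, the Fos paralog, held TGACG at -60 to -56, close to the second position in Fos. Jun held no TGACG but had TGACATCA at -45 to -38 and TGAGCTCA at 3 to 10. Nfil3 held CGTCA, the same site on the other strand, at -59 to -55. TGACG was present in 20.8% of 32851 mouse promoter windows of this length and in 5 of the 9 (Fos, Fosb, Junb, Batf and Nfil3). TGANNTCA was present in 14.1% of all windows and in Jun and Jund. The AP-1 site TGANTCA was present in 7.81% of all windows and in 0 of the 9, which says only that these letters are not in these windows. A match is a description and not a binding site.

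Before the results, the state of the libraries was read. Across genes, the log2 values of any 2 arrays of a group had an r of 0.988 to 0.996. An earlier analysis of these values split the arrays of each group in a way that the labels do not mention. The set called A is made of replicates 1 and 2 of the naive and Tim-3+ groups with Tim-3- replicate 1, while B is made of the remaining 7 arrays. Values in each set are given for Fos, Fosb, Jun, Junb, Batf3, Maf and Nfil3. Fosl2, Batf and, on its brighter probe set, Jund rose over naive cells in both sets. In set A the Tim-3- group is a single array, assumed to vary like the others. Because the sets were split on these same values, the spread within a set can be too small. An adjusted p within a set can then be too low and is a description. Of 8 CD8 T cell markers, all with group means above 5.71, 1 was higher and 2 lower in Tim-3- TIL than in naive cells and 1 and 3 in Tim-3+ TIL. Cd8a stood at 12.82, 12.63 and 12.85 and Cd3d at 12.49, 12.29 and 12.33 in naive, Tim-3- and Tim-3+ cells, and Havcr2, which encodes Tim-3, differed by 4.58 ± 0.20 between the TIL groups. The values come without detection calls, so a level below 5.71, percentile 40 of all genes, may lie at background.

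**Figure D1:**
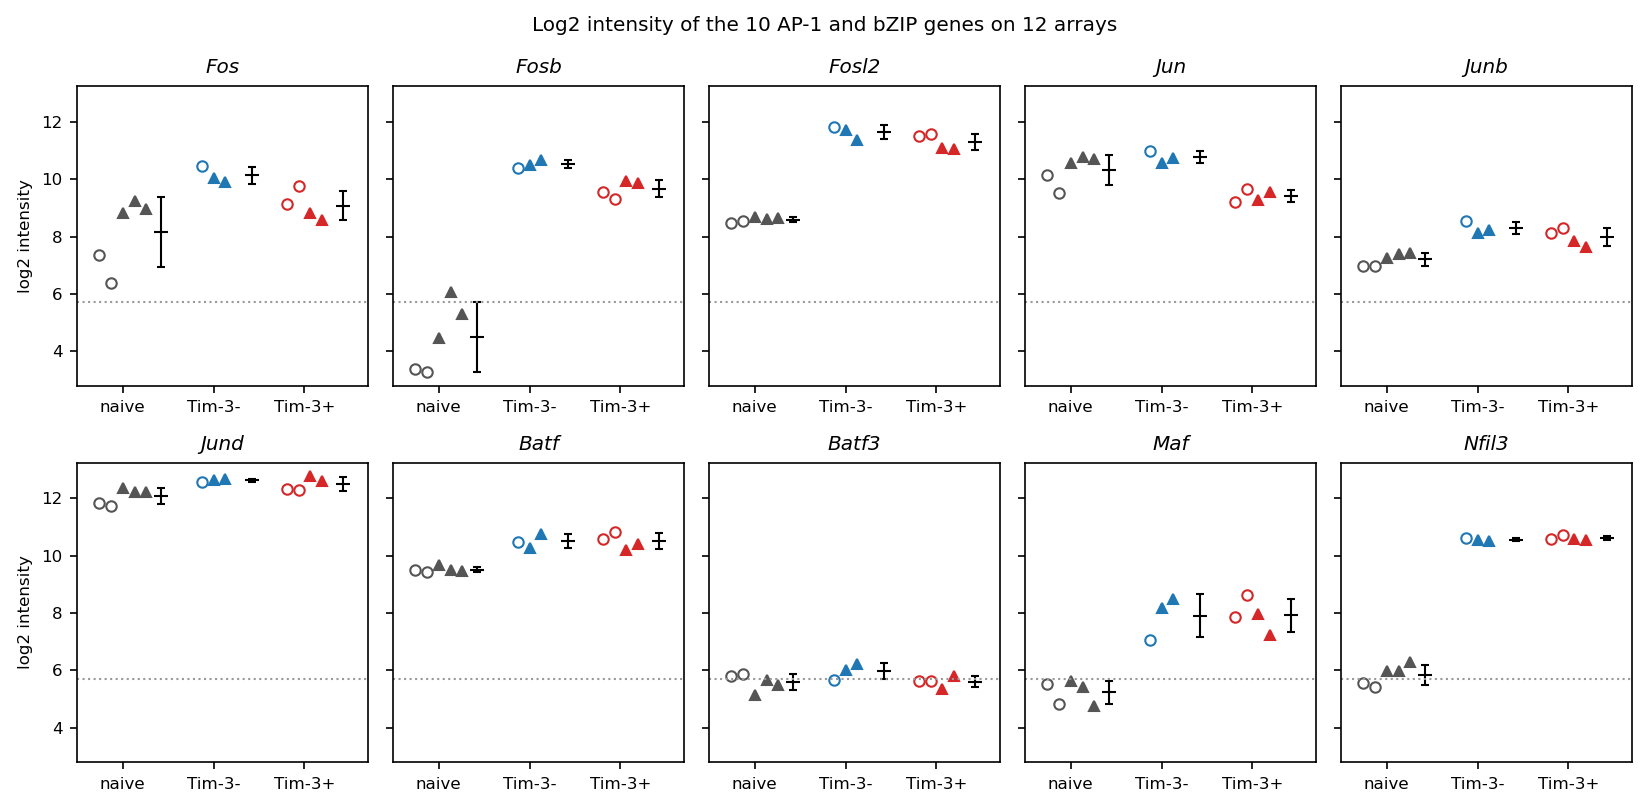
Log2 intensity of the 10 genes on each array (vertical axis) by group (horizontal axis), with open circles for array set A, filled triangles for set B, black bars for the mean and SD, and a dotted line at 5.71. Fosb, Nfil3, Fosl2 and Maf stand apart between naive and TIL arrays, and Jun is lower on all 4 Tim-3+ arrays than on any Tim-3- array.

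Of the 10 genes, 8 were higher and 0 were lower in Tim-3- TIL than in naive cells (limma, adjusted p under 0.05), with Jund among the higher genes only on its brighter probe set. At an unadjusted p under 0.05 they were 9 and 0. Among all genes, 34.4% passed in that comparison, 16.1% as higher and 18.3% as lower. For all 8 no TIL array reached into the naive range, as for 35.1% of all genes, 16.1% as higher and 19.0% as lower. In Tim-3+ TIL, 7 were higher and 1, Jun, was lower than in naive cells, where 41.5% of all genes passed, 20.1% as higher and 21.4% as lower. For 6 of the 7, all but Jund, the arrays did not overlap, as for 37.3% of all genes, 18.4% as higher and 18.9% as lower. The median log2 change of the 10 genes was 1.54 and 0.96 in the 2 comparisons, against -0.06 and -0.07 over all genes. Both comparisons share the naive arrays. In the direct TIL comparison only Jun passed, as lower in Tim-3+ cells, where 13.5% of all genes passed, 7.77% as higher and 5.77% as lower. The arrays of the 2 TIL groups did not overlap for 3 of the 10 genes, Fos, Fosb and Jun, all lower in Tim-3+ cells, and this held for 22.7% of all genes, 13.1% as higher and 9.57% as lower. The median over the 10 genes was -0.33, against 0.01 over all genes.

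**Figure D2:**
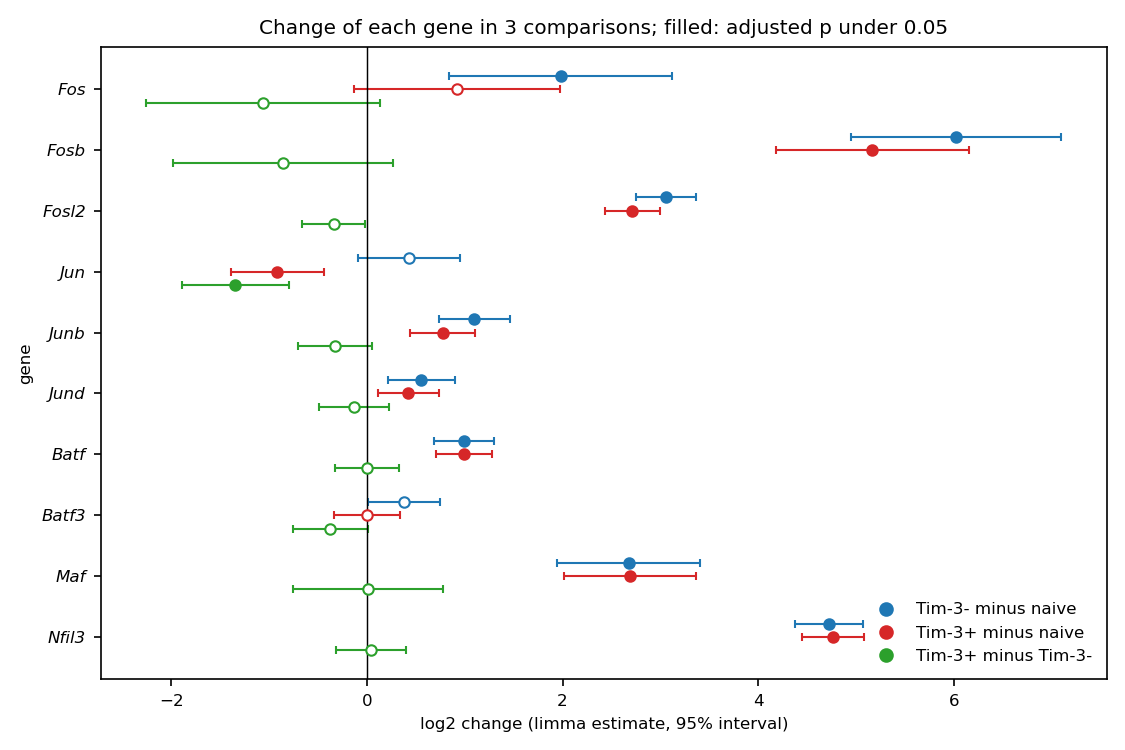
Log2 change of each gene (horizontal axis, with 95% interval) in the 3 comparisons, filled where the adjusted p is under 0.05. Fosb has the changes of 6.02 and 5.17 against naive cells at the right, and Jun at -1.34 is the filled point of the comparison between TIL groups.

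Fos encodes the founding Fos subunit of AP-1. Its naive arrays, replicates 1 to 5, stood at 7.35, 6.39, 8.80, 9.24 and 8.98, its Tim-3- arrays at 10.46, 10.02 and 9.92, and its Tim-3+ arrays at 9.12, 9.76, 8.82 and 8.59. All Tim-3- arrays were above every other array, and the naive arrays of set A lay well under those of set B. Fos was 3.95-fold higher in Tim-3- TIL than in naive cells, a log2 change of 1.98 ± 0.53 (adjusted p = 0.00956). In Tim-3+ TIL the change was 0.92 ± 0.49 (adjusted p = 0.152), short of the threshold, with a 95% interval from -0.13 to 1.97.

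The size of the Fos change depended on the array set. Against naive cells, Tim-3- TIL were higher by 3.59 within set A, where they are 1 array, and by 0.96 within set B (adjusted p = 0.00121). Tim-3+ TIL were higher by 2.57 within set A (adjusted p = 0.0032), while within set B the difference was -0.30 (adjusted p = 0.147). For Fos, the 2 TIL groups differed by -1.06 ± 0.55 (adjusted p = 0.273), although the 2 groups did not overlap. The shared spread takes in the naive arrays, which ranged from 6.39 to 9.24. A fit of the TIL arrays alone gave the same difference with an adjusted p of 0.0337. The difference was -1.02 in set A, with 1 Tim-3- array, and -1.26 in set B (adjusted p = 0.00193). The sets were split on these same values, so that adjusted p can be too low.

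Fosb encodes a second Fos subunit, spliced to a full-length and a truncated form that its 1 probe set is not used to separate. Its naive arrays stood at 3.40, 3.27, 4.47, 6.08 and 5.29, its Tim-3- arrays at 10.39, 10.51 and 10.67, and its Tim-3+ arrays at 9.54, 9.32, 9.93 and 9.88. All TIL arrays were far above all naive arrays, and each Tim-3- array was above each Tim-3+ array. The log2 change from naive was 6.02 ± 0.50 in Tim-3- TIL (adjusted p = 4.21e-07) and 5.17 ± 0.46 in Tim-3+ TIL (adjusted p = 4.62e-07), or 65.1-fold and 35.9-fold on these values. The naive mean of 4.50 lies below 5.71, so these sizes rest on a level that may be background. They also differed between the array sets, at 7.06 and 6.10 in set A and 5.31 and 4.63 in set B for Tim-3- and Tim-3+ TIL. Both changes in set B were past the threshold. Tim-3+ minus Tim-3- TIL, Fosb differed by -0.86 ± 0.52 (adjusted p = 0.361), and by the same -0.86 with an adjusted p of 0.0111 in the fit of the TIL arrays alone. It was -0.97 within set A, with 1 Tim-3- array, and -0.69 within set B (adjusted p = 0.354).

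Fosl2 encodes Fra-2, a Fos protein without the strong activation domain of c-Fos. Its naive arrays stood at 8.47, 8.55, 8.67, 8.59 and 8.63, a spread of 0.079 (SD), its Tim-3- arrays at 11.83, 11.71 and 11.37, and its Tim-3+ arrays at 11.49, 11.57, 11.08 and 11.05. The naive arrays lay tightly together, far below the TIL arrays, and the TIL groups overlapped. Fosl2 was 8.30-fold higher in Tim-3- TIL (log2 change 3.05 ± 0.14, adjusted p = 1.57e-09) and 6.56-fold higher in Tim-3+ TIL (2.71 ± 0.13, adjusted p = 6.8e-10). Within the sets these changes lay at 3.32 and 2.91 for Tim-3- TIL and at 3.02 and 2.43 for Tim-3+ TIL, sets A and B in turn. Tim-3+ minus Tim-3- TIL, the difference was -0.34 ± 0.15 (adjusted p = 0.176). A second probe set of Fosl2 gave 4.14 ± 0.23, 3.46 ± 0.21 and -0.68 ± 0.24 (adjusted p = 0.0832) in the same order, and with the mean of both probe sets the TIL difference of -0.51 passed (adjusted p = 0.0498).

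Jun encodes c-Jun, the Jun subunit that pairs with Fos proteins and activates its own gene. Its Tim-3- arrays stood at 10.99, 10.56 and 10.72, and its Tim-3+ arrays at 9.20, 9.66, 9.26 and 9.55. Each Tim-3+ array was below each Tim-3- array, the nearest pair being 9.66 and 10.56. Jun was 2.54-fold lower in Tim-3+ than in Tim-3- TIL, a log2 change of -1.34 ± 0.25 (adjusted p = 0.00254). It was -1.56 within set A, with 1 Tim-3- array, and -1.24 within set B (adjusted p = 0.000982). With each array left out of the full fit in turn, the adjusted p stayed between 0.00441 and 0.0127. The second Jun probe set gave -1.17 ± 0.24 (adjusted p = 0.0053).

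Naive arrays for Jun lay at 10.13, 9.51, 10.56, 10.76 and 10.69, of which replicates 4 and 5 lay within the range of the Tim-3- arrays and the other 3 below it, replicate 3 only just. Tim-3- TIL did not pass against naive cells, at 0.43 ± 0.24 (adjusted p = 0.199, 95% interval -0.09 to 0.95). The direction of that difference was not stable: it was 1.17 in set A, -0.03 in set B and -0.56 ± 0.23 with the second probe set (adjusted p = 0.0762). Tim-3+ TIL were 1.88-fold lower than naive cells (-0.91 ± 0.22, adjusted p = 0.00397), with naive replicate 2 at 9.51 inside the Tim-3+ range. This fall was -0.39 within set A (adjusted p = 0.29), short of the threshold, and -1.27 within set B (adjusted p = 8.36e-05), and the second probe set gave -1.73 ± 0.21 (adjusted p = 1.32e-05).

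Junb encodes a Jun protein that activates less strongly than c-Jun in most settings and also pairs with BATF. Naive arrays stood at 6.98, 6.96, 7.27, 7.40 and 7.42, Tim-3- arrays at 8.55, 8.13 and 8.24 and Tim-3+ arrays at 8.14, 8.30, 7.86 and 7.62. Every TIL array was above every naive array, and the TIL groups overlapped. Junb rose by 1.10 ± 0.17 in Tim-3- TIL (adjusted p = 0.000138) and by 0.77 ± 0.15 in Tim-3+ TIL (adjusted p = 0.000921), while the TIL groups differed by -0.32 ± 0.17 (adjusted p = 0.294). Set A gave rises of 1.58 and 1.25, and set B of 0.82 and 0.38, with both rises in set B past the threshold.

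Jund, the Jun gene that most resting cells express, gave opposite directions on its 2 probe sets. On the brighter one, naive arrays stood at 11.83, 11.72, 12.37, 12.23 and 12.22, Tim-3- arrays at 12.57, 12.63 and 12.68 and Tim-3+ arrays at 12.33, 12.27, 12.77 and 12.62. It rose by 0.56 ± 0.16 in Tim-3- TIL (adjusted p = 0.0143) and by 0.43 ± 0.15 in Tim-3+ TIL (adjusted p = 0.0312), and the Tim-3+ arrays overlapped naive ones. The first call was lost without Tim-3- replicate 3 (adjusted p = 0.0548). The second was lost without naive replicate 1, naive replicate 2, Tim-3+ replicate 3 or Tim-3+ replicate 4, at adjusted p between 0.0741 and 0.108. The other probe set, with means of 7.05, 6.32 and 6.43, fell by 0.72 on the log2 scale in Tim-3- TIL (SE 0.16, adjusted p = 0.00229) and by 0.62 in Tim-3+ TIL (SE 0.14, adjusted p = 0.00295). No direction can be given for Jund from these arrays.

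Batf encodes the small bZIP partner of Jun proteins that lacks an activation domain and is needed for effector CD8 T cells. Its naive arrays stood at 9.49, 9.44, 9.66, 9.50 and 9.46, its Tim-3- arrays at 10.48, 10.28 and 10.77, and its Tim-3+ arrays at 10.58, 10.84, 10.19 and 10.42. All TIL arrays were above all naive arrays, and the TIL groups lay over each other. Batf was 1.99-fold higher in each TIL group, by 0.99 ± 0.14 in Tim-3- TIL (adjusted p = 8.58e-05) and by 1.00 ± 0.13 in Tim-3+ TIL (adjusted p = 2.65e-05). Their difference had a 95% interval from -0.32 to 0.32.

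Batf3, known for its role in cross-presenting dendritic cells and in memory CD8 T cells, was near the background level. Its naive arrays stood at 5.81, 5.86, 5.15, 5.66 and 5.51, its Tim-3- arrays at 5.68, 6.01 and 6.23 and its Tim-3+ arrays at 5.63, 5.62, 5.35 and 5.82. The groups overlapped throughout. No comparison passed, with 0.38 ± 0.17 in Tim-3- TIL against naive (adjusted p = 0.109), 0.01 ± 0.16 in Tim-3+ TIL (adjusted p = 0.984) and -0.37 ± 0.18 between the TIL groups (adjusted p = 0.223). Without Tim-3- replicate 1 the first of these was 0.52 and passed (adjusted p = 0.0433), and it was -0.15 within set A and 0.68 within set B (adjusted p = 0.0235).

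Maf encodes c-Maf, a large Maf protein that regulates Il10 and is found in T cells under chronic stimulation and in macrophages. Naive arrays stood at 5.51, 4.83, 5.63, 5.42 and 4.77, Tim-3- arrays at 7.06, 8.18 and 8.49 and Tim-3+ arrays at 7.87, 8.63, 7.97 and 7.22. All TIL arrays were above all naive arrays, which lay under 5.71, and the TIL groups covered the same range. The change from naive was 2.68 ± 0.34 in Tim-3- TIL (adjusted p = 2.61e-05) and 2.69 ± 0.31 in Tim-3+ TIL (adjusted p = 7.12e-06), sizes that rest on a level that may be background. In set A the changes were 1.89 and 3.08, and in set B 3.06 and 2.32. The difference between the TIL groups, 0.01 ± 0.35, has a 95% interval from -0.75 to 0.78. It was 1.19 within set A, with 1 Tim-3- array, and -0.74 within set B (adjusted p = 0.187).

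The 6 probe sets of Maf did not give 1 size. Against naive cells, the one with a naive mean of 3.66 gave 4.44 ± 0.32 and 4.10 ± 0.30 in Tim-3- and Tim-3+ TIL, and the one at 1.82 gave 2.14 ± 0.54 and 2.40 ± 0.49. The values were 1.30 ± 0.21 and 1.17 ± 0.19 for the probe set at 3.82. On the probe set at 2.48 only the Tim-3+ change passed, at 1.54 ± 0.34 against 0.66 ± 0.37 (adjusted p = 0.202), and the one at 6.39 lay level at 0.10 and 0.05. None of the 6 passed between the TIL groups.

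**Figure D3:**
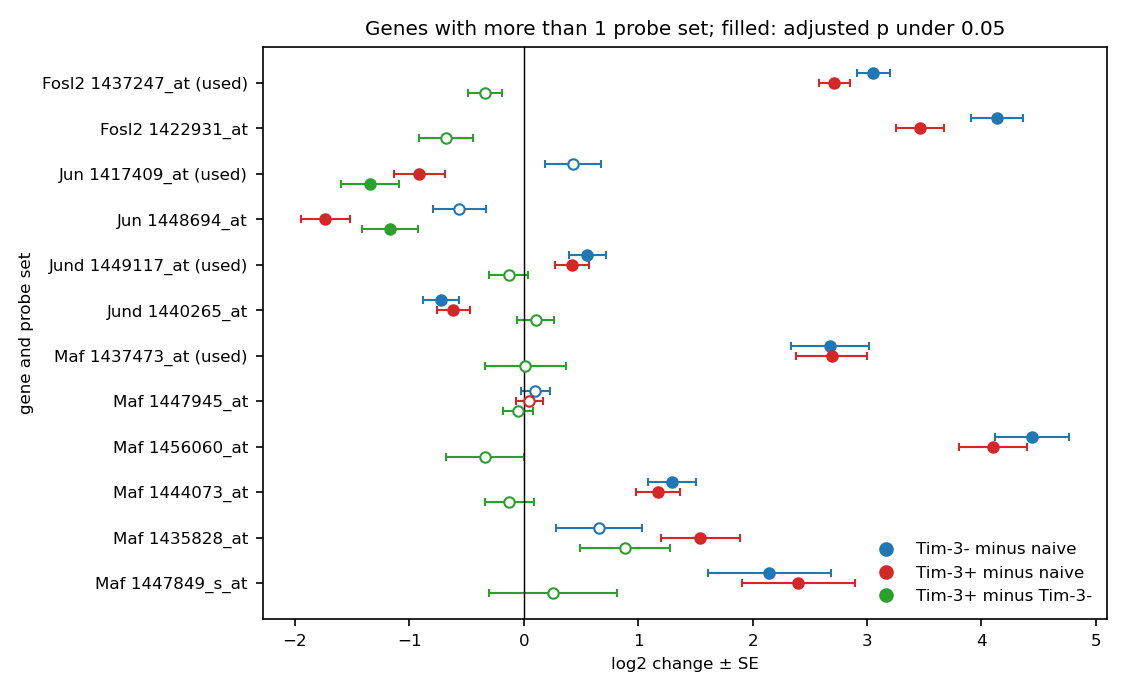
Log2 change ± SE (horizontal axis) of every probe set of the 4 genes that have more than 1, in the 3 comparisons, filled where the adjusted p is under 0.05. Both Jun probe sets are filled below 0 between the TIL groups, both Fosl2 probe sets lie far right of 0 against naive cells, and the Jund probe sets lie on opposite sides of 0.

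Nfil3 encodes E4BP4, a repressor needed for NK cells and reported in T cells that express inhibitory receptors. Its naive arrays stood at 5.56, 5.41, 5.97, 5.98 and 6.28, its Tim-3- arrays at 10.61, 10.56 and 10.51 and its Tim-3+ arrays at 10.59, 10.70, 10.59 and 10.53. The 7 TIL arrays were nearly level. Nfil3 was 26.4-fold higher in Tim-3- TIL (4.72 ± 0.16, adjusted p = 6.02e-11) and 27.2-fold higher in Tim-3+ TIL (4.76 ± 0.15, adjusted p = 1.01e-11), with naive arrays on both sides of 5.71. The changes were 5.12 and 5.16 in set A and 4.46 and 4.48 in set B. The TIL groups differed by 0.04 ± 0.17, with a 95% interval from -0.32 to 0.41.

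The array sets were then compared within each group. Among naive arrays, 5 of the 10 genes were higher in set B than in set A and 0 were lower, where 7.30% of all genes passed and 4.97% were higher: Fos by 2.14 ± 0.27 (adjusted p = 0.00409), Fosb by 1.95 (adjusted p = 0.0113), Jun by 0.85 (adjusted p = 0.0275), Nfil3 by 0.59 (adjusted p = 0.017) and Jund by 0.50 (adjusted p = 0.016). Of 36 immediate early and heat shock genes without a bZIP, 8 were also higher there and 0 lower. Among Tim-3+ arrays the 10 genes gave 2 calls, both lower in set B, Junb by -0.48 and Fosl2 by -0.47, where 6.72% of all genes passed and 2.00% were lower, and 8 of the 36 genes were lower and 1 higher. Among Tim-3- arrays, with 1 array in set A, 0 of the 10 passed by limma (1 higher and 1 lower at an unadjusted p under 0.05) and 7.97% of all genes did, with 1 of the 36 genes higher and 5 lower. Since an analysis of the same arrays defined the sets, their difference is a description. The set difference of Fos was larger in naive than in TIL arrays, by 2.87 ± 0.40 against Tim-3+ (adjusted p = 0.0187) and by 2.63 ± 0.45 against Tim-3- (adjusted p = 0.0432), as for 0.451% and 0.780% of all genes. What separates the sets was not tested.

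**Figure D4:**
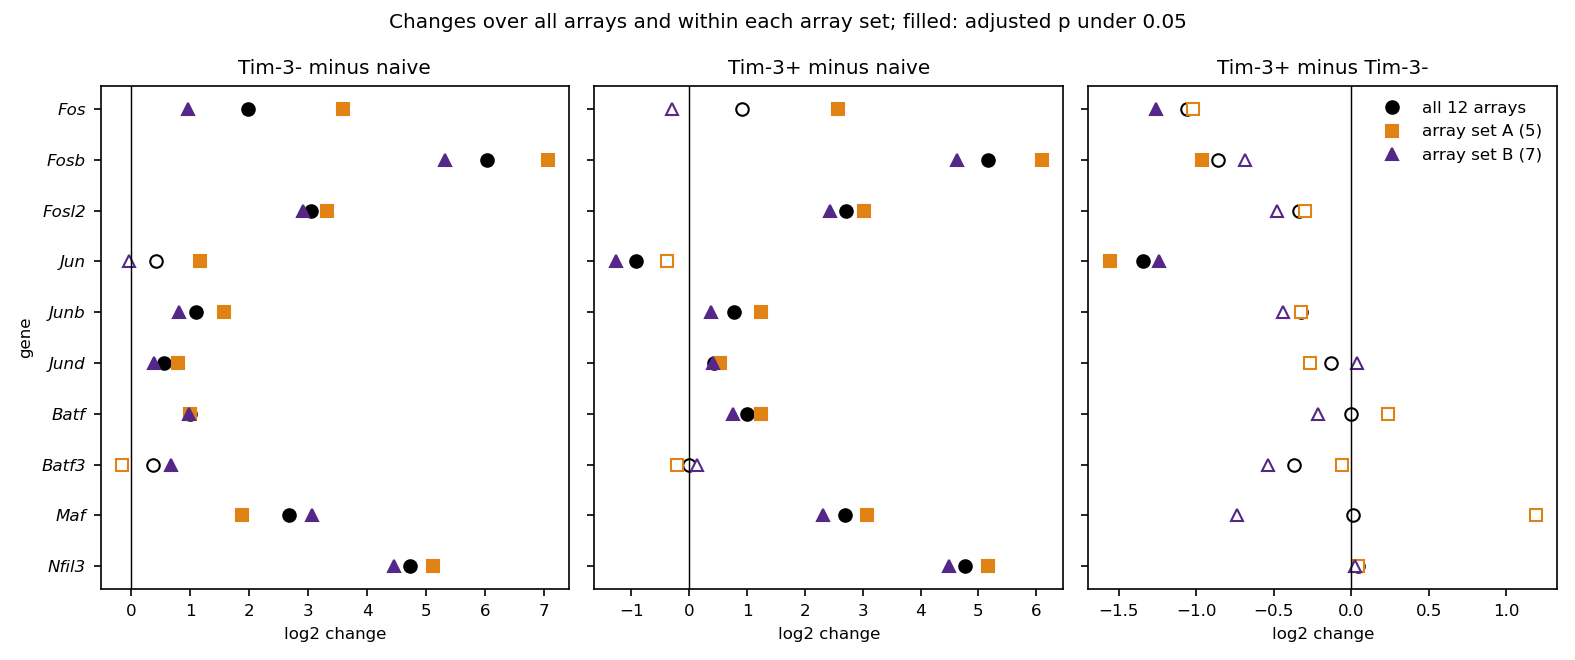
Log2 change of each gene (horizontal axis) over all 12 arrays (circles), within set A (squares) and within set B (triangles), 1 panel per comparison, filled where the adjusted p is under 0.05. Fos against naive spans 0.96 to 3.59 in Tim-3- and -0.30 to 2.57 in Tim-3+ TIL, while Jun between the TIL groups lies at -1.34, -1.56 and -1.24. Set A holds 1 Tim-3- array, and the sets were split on these same values.

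Of 43 other bZIP genes listed, 39 were measured, in 4 lists. Together they gave 13 higher and 11 lower calls in Tim-3- TIL against naive, 15 and 13 in Tim-3+ TIL and 2 and 4 between the TIL groups. For these and all later lists, the shares of all genes against naive were 16.1% higher and 18.3% lower in Tim-3- TIL. They were 20.1% and 21.4% in Tim-3+ TIL, and 7.77% and 5.77% between the TIL groups. Among the other AP-1 and ATF-like genes (9 measured) 3 were higher and 2 lower in Tim-3- TIL and 3 higher and 4 lower in Tim-3+ TIL. Crem, whose products include the repressor ICER, rose by 4.87 ± 0.20 and 5.13 ± 0.18. Jdp2, a repressive Jun partner, rose by 3.29 ± 0.18 and 3.67 ± 0.16, and the stress-induced Atf3 by 2.47 ± 0.27 and 2.35 ± 0.25, with naive means of 5.52 and 4.63 that may lie at background. Between the TIL groups 2 of the 9 were lower and 0 higher, Fosl1 by -0.43 ± 0.10 (adjusted p = 0.0128) and Atf2 by -0.36 ± 0.10 (adjusted p = 0.0272), with Fosl1 near background in all groups.

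Among 10 CNC, BACH and MAF genes measured, falls and rises stood side by side. Bach2, a repressor that competes for AP-1-like sites, stood at 10.85, 9.99 and 7.68 in naive, Tim-3- and Tim-3+ cells. Nfe2l2, the oxidative stress factor NRF2, fell by 1.80 in Tim-3- and by 2.40 in Tim-3+ TIL on the log2 scale against naive, and by 0.60 between the TIL groups (adjusted p = 0.0125). The small Maf genes went the other way against naive: Maff rose by 2.08 ± 0.21 and 1.66 ± 0.20 and Mafk by 0.68 ± 0.10 and 0.48 ± 0.09. The list as a whole gave 3 higher and 3 lower calls in Tim-3- TIL, 3 and 4 in Tim-3+ TIL, and 1 (Nfe2, at or below background) and 2 between the TIL groups.

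Among 8 C/EBP and PAR bZIP genes, 2 were higher and 3 lower in Tim-3- TIL, 3 and 3 in Tim-3+ TIL, and by limma 0 passed between the TIL groups (3 at an unadjusted p under 0.05, 2 of them higher). Dbp, a PAR activator that binds the sites NFIL3 represses, fell by 2.31 and by 2.76 on the log2 scale (adjusted p = 7.28e-08 and 2.16e-09). Cebpb rose by 1.44 ± 0.25 and 2.23 ± 0.23, and Cebpg fell by 0.86 and by 0.77. Among 12 stress and endoplasmic reticulum bZIP genes, 5 were higher and 3 lower in Tim-3- TIL, 6 and 2 in Tim-3+ TIL, and 1 higher between the TIL groups, Creb3l1 by 0.90 ± 0.17 (adjusted p = 0.00225). The unfolded protein response factors Atf6 and Xbp1 rose by 2.31 ± 0.21 and 1.96 ± 0.27 in Tim-3- TIL and by 2.64 ± 0.19 and 1.65 ± 0.25 in Tim-3+ TIL.

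**Figure D5:**
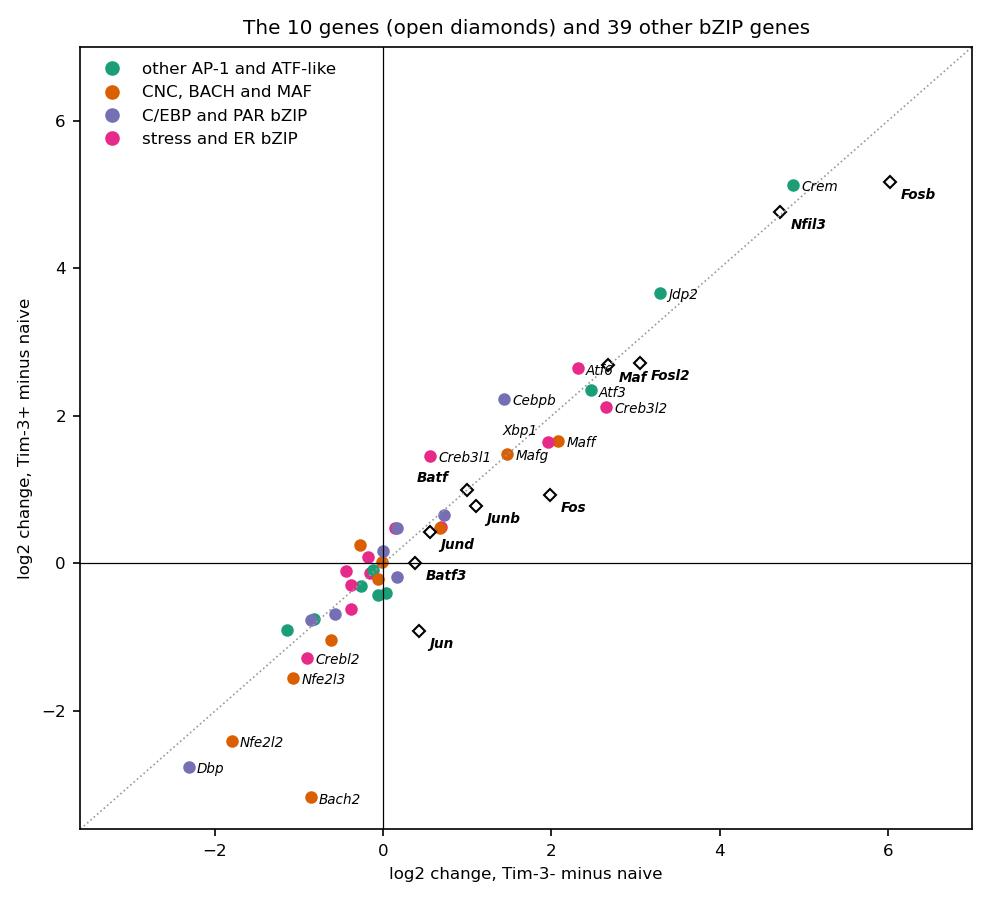
Log2 change against naive cells in Tim-3- TIL (horizontal axis) and Tim-3+ TIL (vertical axis) of the 10 genes (open diamonds) and 39 other bZIP genes (filled, coloured by list), with a dotted line where both are equal. Both axes share the naive arrays, so closeness to the line is partly built in; Jun lies below the line at 0.43 and -0.91, and Bach2 at -0.86 and -3.17.

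Upstream of AP-1, MAP kinases phosphorylate Jun and the ternary complex factors that drive Fos with SRF. Of 23 such genes measured, 6 were higher and 3 lower in Tim-3- TIL, 8 and 6 in Tim-3+ TIL, and 3 and 2 between the TIL groups, with list medians of -0.01, -0.01 and -0.02. Map2k3, which activates p38, rose by 1.68 ± 0.19 and 2.40 ± 0.17 against naive and by 0.71 ± 0.19 between the TIL groups (adjusted p = 0.0246). Map3k1 and Map3k5, kinases upstream of JNK, rose by 1.03 ± 0.13 and 0.97 ± 0.12 in Tim-3- TIL. Elk4, a ternary complex factor, fell by 0.65 and by 1.40 against naive and by 0.75 between the TIL groups on the log2 scale (adjusted p = 0.000489). Cops5, also known as JAB1, a Jun-binding subunit of the COP9 signalosome, rose in all 3 comparisons, by 0.49, 1.00 and 0.51, and Mapk11 (p38 beta), near background, was lower between the TIL groups by -0.64 (adjusted p = 0.00355).

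Of 12 partners that bind DNA beside AP-1, 7 were higher and 1 lower in Tim-3- TIL, 7 and 5 in Tim-3+ TIL, and 2 and 2 between the TIL groups. Irf8 and Irf4, which bind with BATF, differed in pattern. Irf8 stood at 5.92, 9.97 and 11.42 in naive, Tim-3- and Tim-3+ cells and rose between the TIL groups by 1.45 ± 0.22 (adjusted p = 0.000442), whereas Irf4, named after its values were seen, rose by 2.59 ± 0.25 and 2.33 ± 0.23 against naive and did not pass between the TIL groups (-0.26 ± 0.26, adjusted p = 0.632). Nfatc1, the NFAT gene induced by its own signalling, rose by 1.56 ± 0.09 in Tim-3- TIL, and Tbx21 (T-bet) by 3.65 ± 0.26. Prdm1, which encodes the repressor Blimp-1, rose by 2.04 ± 0.17 from Tim-3- to Tim-3+ TIL, and Smad3, a TGF-beta signal transducer, was lower, at 9.03 against 10.03 (adjusted p = 0.0135).

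Of 18 T cell genes known for AP-1, NFAT-AP-1 or c-Maf elements, 16 were higher and 1 lower in Tim-3- TIL and 11 higher and 1 lower in Tim-3+ TIL, with list medians of 2.35 and 2.83. Among all genes 16.1% were higher and 18.3% lower in Tim-3- TIL, and 20.1% and 21.4% in Tim-3+ TIL. The list was chosen with earlier results of these data known, and the sort genes Pdcd1 and Havcr2 are in its counts and medians. Its counts are therefore a description and no test of AP-1 activity. Fasl rose by 6.35 ± 0.23 and 7.07 ± 0.21, and Pdcd1, a gene of the sort, by 6.24 and 6.63. Between the TIL groups 4 were higher and 5 lower. Il2, the growth factor gene with the classical NFAT-AP-1 elements, stood at 4.95, 7.21 and 4.59 in naive, Tim-3- and Tim-3+ cells and differed by -2.62 ± 0.28 between the TIL groups (adjusted p = 2.22e-05). The size of that difference rests on a Tim-3+ level that may be background. Gzmb, which encodes granzyme B, stood at 5.80, 10.21 and 12.88 and rose by 2.67 ± 0.30 (adjusted p = 3.79e-05). The other 3 higher genes, Havcr2, Ccl3 and Ccl4, and the other 4 lower genes, Il3, Csf2, Cd69 and Cd40lg, went the way of Gzmb and of Il2, and Havcr2 is a gene of the sort. The means of Il3 and Cd40lg lay below 5.71 in all groups.

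The 36 immediate early and heat shock genes without a bZIP were read beside Fos, Fosb, Jun and Junb. In Tim-3- TIL 21 were higher and 3 lower than in naive cells, and in Tim-3+ TIL 18 and 9. Hspa1a, an inducible heat shock gene, rose by 6.28 ± 0.23 and 7.40 ± 0.21, from a naive mean of 2.85 that may be background. Rgs1 rose by 5.21 ± 0.14 and 5.39 ± 0.13, and the MAP kinase phosphatase gene Dusp5 by 3.78 ± 0.17 and 4.06 ± 0.15. Between the TIL groups, which share the digestion, 2 were higher and 9 lower. Socs3 was lower by -1.92 ± 0.18, Nfkbiz by -1.73 ± 0.22 and Pim1 by -0.77 ± 0.11, as Jun was, while Hspa1a was higher by 1.13 ± 0.24 (adjusted p = 0.00604). The part of tissue handling in the levels of the 10 genes was not tested.

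Markers of other cells were read for the same groups, since in bulk samples fewer cells of a type and less RNA per cell cannot be told apart. Of 14 monocyte and macrophage markers, 2 (Cd68 and Cybb) were higher and 1 (Fcgr3) lower in Tim-3- TIL and 3 and 1 in Tim-3+ TIL. Their summed intensity was 454 to 555 in naive, 674 to 755 in Tim-3- and 593 to 690 in Tim-3+ arrays. Cd68 stood at 6.83, 8.28 and 7.46, and Csf1r at 5.98, 5.75 and 5.90. Of the 14, 3 had a mean above 5.71 in each group. Of 11 dendritic cell markers, 4 (Irf8, Cd74, Itgax and H2-Ab1) were higher and 1 lower in Tim-3- TIL and 4 and 2 in Tim-3+ TIL, with summed intensities of 749 to 1046, 2149 to 3736 and 3000 to 4975. Irf8 is among them and is also a T cell gene, and Cd74 stood at 7.17, 9.98 and 8.36. Of the 11, 7, 8 and 7 had a mean above 5.71 in naive, Tim-3- and Tim-3+ cells.

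Of 14 melanoma markers, 2 were higher and 2 lower in Tim-3- TIL and 7 and 2 in Tim-3+ TIL than in naive cells, with 0 calls by limma between the TIL groups (3 higher at an unadjusted p under 0.05). The 2 higher in Tim-3- TIL, chosen after their values were seen, were Tyrp1 by 3.05 and Dct by 2.24. The summed intensity of all 14 was 1145 to 1364, 812 to 1152 and 838 to 2005, and the 2 brightest, Trpm1 (9.03, 7.53 and 7.69) and Pmel (8.05, 7.17 and 6.81), were brighter in naive cells. Of 6 CD4 and regulatory T cell markers, 5 were higher and 0 lower in Tim-3- TIL and 4 and 0 in Tim-3+ TIL, of which the 2 brightest were Ikzf2 at 7.28, 10.92 and 10.82 and Gata3 at 7.92, 8.72 and 8.77, with sums of 756 to 785, 2877 to 3045 and 2356 to 3060. Of 8 B cell markers 1 was higher and 2 lower in Tim-3- TIL, and 0 and 3 in Tim-3+ TIL, with Cd79b at 8.89, 6.37 and 5.59 and sums of 627 to 834, 296 to 299 and 237 to 252. Of 7 neutrophil markers none passed by limma (sums 162 to 269, 170 to 194 and 166 to 193), with 0 and 2 at an unadjusted p under 0.05 in Tim-3- and Tim-3+ TIL against naive. Of 4 NK cell markers 1, Styk1, was higher in each TIL group (sums 29.8 to 43.9, 44.9 to 65.6 and 178 to 494), and of 10 fibroblast and endothelial markers 1 and 3 were lower (sums 1090 to 1341, 598 to 623 and 384 to 465). Pecam1, the brightest of these 10, stood at 9.77, 8.17 and 6.71 and made up most of the naive sum. The other endothelial genes Cdh5, Kdr and Vwf, named after their values were seen, had means below 5.71 in every group. Each sum is weighted to the brightest genes of its list, such as Ikzf2 and Irf8 in TIL. From Tim-3- to Tim-3+ TIL, where Jun fell, 0 of the 6 CD4 and regulatory T cell markers were higher and 2 lower (Foxp3 and Cd40lg), and 1 (Irf8) of the dendritic cell markers was higher and 2 (Cd74 and Itgax) lower. In that comparison 1 macrophage marker was higher (Cd14) and 1 lower (Cd68), 1 NK cell marker was higher (Styk1), and 0 neutrophil markers passed by limma, with 0 at an unadjusted p under 0.05. Lower in Tim-3+ TIL were 2 B cell markers (Cd79b and Cd22), 1 endothelial marker (Pecam1) and 2 of the CD8 T cell markers (Cd28 and Cd2). The part of such cells in the levels of the 10 genes was not tested.

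The genes whose profiles over the 12 arrays came closest were found by the root mean square difference of values centred on each gene's mean, among 11606 genes whose highest group mean was above 5.71. Closest to Jun was Hipk2, a nuclear kinase gene, at a difference of 0.23, with levels of 8.71, 8.90 and 7.49 in naive, Tim-3- and Tim-3+ cells, followed by Ankrd13b at 0.27. Closest to Nfil3 were Pmaip1, which encodes the BH3-only protein NOXA, at 0.18 (5.49, 10.13 and 10.02), and Chst11 at 0.28. Closest to Fosl2 were Tnfaip3, which encodes the NF-kappaB inhibitor A20, at 0.16, and the hexokinase gene Hk2 at 0.18. Fosb had no near neighbour: Stx11 and the nuclear receptor gene Nr4a2 were at 0.65 and 0.70. Fos was nearest to Tert at 0.61 and to Ppp1r15a at 0.62. The nearest to Maf were Asap2 at 0.35 and Ptprj at 0.43, to Batf Bcl7c at 0.16 and Naa20 at 0.19, and to Junb Wsb1 and Vhl, both at 0.19. Jund (Bri3bp at 0.072, Heatr3 at 0.085) and Batf3 (Khdc3 at 0.11, Gng4 at 0.13) had small differences and span little themselves. All of these are descriptions over arrays that share groups and sets.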

How the data were processed

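Expression was measured on 12 Affymetrix mouse arrays. Each deposited value is a linear intensity per probe set, which the authors made with RMA and the affy package, per the submitters' processing notes; no version, and no word on the linear scale or on joint normalization, is in the sources used here. The log2 of each deposited intensity was taken. Of 45101 probe sets, 34958 name 1 gene in the array's annotation, 932 several and 9211 none, and 18194 genes were tested. Median intensities lay between 58.8 and 63.0, and precision is limited by how many arrays each group has.

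The 3 group means were fitted to all 12 arrays with limma 3.58.1 in R 4.3.3, which gave log2 changes ± SE, two-sided tests and Benjamini-Hochberg adjusted p over all genes, with a threshold of 0.05. Values of single probe sets beside the one used came from the same model fitted to the 34958 probe sets that name 1 gene, with p adjusted over these. Differences between array sets came from a fit with a mean for each group and set. Levels are means with SD. The 10 genes and the 17 gene lists (208 of 223 genes measured) were chosen with earlier results of these data known. Named genes are the 10 genes, up to 3 genes per list and comparison with the smallest adjusted p below 0.05, the 2 brightest of each marker list, the 2 closest profiles per gene and the sort markers; others are said to be outside this rule or are all members of a count.

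As alternatives, probe sets were averaged or the most variable one was taken, arrays were normalized again or centred, dim genes were left out, moderation used a trend, only the compared groups were fitted, and the replicate number or array set was a block. There were also fits within each set and fits without each array in turn. Deviations of same-numbered arrays correlated at 0.319, 0.186, 0.209 and 0.128 for Tim-3+ TIL and naive cells. Same-numbered arrays of these groups also lie in the same array set. The best naive match of Tim-3+ replicates 1, 2, 3 and 4 was replicate 1, 1, 5 and 5. For the other 2 comparisons the correlations ran from -0.131 to 0.413 and from -0.150 to 0.226. The numbers were not taken as pairs in any comparison and served only as a block in an alternative fit. On simulated data of 18194 genes for Tim-3+ against Tim-3- TIL, 28% of genes with a log2 change of 0.5 were recovered, 70% at 1, 98% at 2 and 100% at 4. There, 50 genes were changed at each size, with independent normal noise and no array sets. In the data 13.5% of genes passed, so recovery in the real comparison may differ. Promoters and figures used Python 3.11.15, pandas 2.3.3 and matplotlib 3.10.9.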

Additional observations from a re-analysis of the deposited data

Results flagged for a closer look

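The set difference of Fos, set B minus set A, was larger among naive than among Tim-3+ arrays, by 2.87 on the log2 scale. A limma contrast of these set differences gave an adjusted p of 0.0187. It was larger among naive than among Tim-3- arrays by 2.63, where set A is a single Tim-3- array. An earlier analysis of these same values split the sets, so both differences are descriptions. Mean Fos levels in sets A and B were 6.87 and 9.01 in naive, 10.46 and 9.97 in Tim-3- and 9.44 and 8.71 in Tim-3+ cells. Batf on naive replicate 3 stood at 9.66, apart from the other naive arrays at 9.44 to 9.50. It was the only lone array among 20 pairs of gene and group tested, and chance gives about 1 in 20.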

How the results depend on the processing

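Over 11 alternatives and fits without 1 array, the counts of the 10 genes past the threshold stayed at 7 to 9 in Tim-3- TIL against naive and at 7 or 8 in Tim-3+ TIL against naive. Leaving out each array gave counts of 7 to 9, 7 to 8 and, between the TIL groups, 1 to 1. Between the TIL groups the count of 1 became 2 with the mean of a gene's probe sets (Fosl2 added) and 3 in the fit of only these groups (Fos and Fosb added). It was 2 within set B (Fos added). The replicate block changed no call of the 10 genes, with counts of 8, 8 and 1 in the same order. For Tim-3+ TIL against naive cells that block turned only Batf3, to -0.018. Of the single results, 301 kept direction and call under the alternatives (19 changed sign, 8 gained and 2 lost the call), and 222 did without 1 array (12, 1 and 5).

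Several differences short of the threshold, and both Jund calls against naive, changed sign. Between the TIL groups, Batf was -0.024 with quantile normalization, -0.015 with the set block and -0.22 within set B, Jund 0.10 with the most variable probe set and 0.036 within set B, and Maf -0.34 and -0.74 in the same settings. Against naive cells in Tim-3- TIL, Batf3 was -0.15 within set A, Jun -0.068 with the mean of probe sets, -0.56 with the most variable one and -0.028 within set B, and Jund -0.083 and -0.72 with the mean and the most variable probe set. In Tim-3+ TIL, Batf3 was -0.0029 with the set block and -0.21 within set A, Fos -0.30 within set B, and Jund -0.096 and -0.62 with the mean and the most variable probe set. Without 1 array, ranges crossing 0 were -0.11 to 0.13 for Batf and -0.41 to 0.30 for Maf between the TIL groups and -0.11 to 0.090 for Batf3 in Tim-3+ TIL. Quantile normalization also ended the Jund call in Tim-3+ TIL (0.38, adjusted p = 0.0646). The causes were not tested. The arrays carry no detection calls, which limits the size of changes from the low naive levels of Fosb and Maf.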
